A study of Mus musculus with 4 samples.

Results

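The genes described here encode proteins of focal adhesions other than the zyxin family, 33 in number. They were chosen by name with earlier results of these data known, so the share of them called is a description and no independent test. The array's gene table assigns a probe set with a single symbol to 32 of them, among 19938 genes tested, and Ptk2, which encodes focal adhesion kinase, is not analysed here. None had to be read through a probe set with several symbols. Where a gene has more than 1 probe set, the brightest over all arrays stands for it. Total RNA of Py2T, a breast cancer line of the mouse, was hybridised to 4 expression arrays. The 2 untreated arrays come from cells kept in DMEM with 10% fetal calf serum, and the 2 TGFβ arrays from the same line after 5 days with 2 ng/ml TGFβ. Both groups are 1 cell line without a genetic change named in the labels, and the replicates are called biological without further detail, so p-values cover only the spread seen among these arrays, which may be technical.

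Focal adhesions are the plaques through which a cell grips its matrix. Integrin receptors in the membrane are switched on by talin and kindlin, and vinculin, parvins, tensins and LIM-domain adaptors tie the integrin tails to actin filaments, while paxillin, p130Cas and integrin-linked kinase pass signals on. TGFβ drives epithelial cells such as Py2T into an epithelial to mesenchymal transition, in which cell contacts loosen and adhesions to the matrix and stress fibres are remodelled.

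All values are on the RMA log2 scale, on which a difference of 1 is a 2-fold change, and the array medians lie within 6.742 to 6.756. A gene was called, here "rose" or "fell", at a limma p adjusted over all 19938 genes under 0.05. Genes known to respond to TGFβ were called: Cdh1 fell by 1.25 and Epcam by 1.10 on the log2 scale, while Nox4, Smad7 and Ccn2 rose by 2.85, 0.99 and 0.88. The epithelial keratins Krt8, Krt18 and Krt7 stayed uncalled, at differences of 0.06, -0.11 and -0.14. Of 18 markers of leukocytes, endothelium, fibroblasts and muscle 17 were measured, 12 of them with means under 7 in both groups. Of these 17, Col1a1 was called (0.46). The fibroblast marker Pdgfra read higher in both TGFβ arrays but was not called (0.49, limma adjusted p = 0.097). Csf1r, a leukocyte marker, read lower in both and was not called either (-0.45, limma adjusted p = 0.20). The leukocyte markers averaged 7.50 and 7.13 untreated, and 6.75 and 7.03 after TGFβ, with the macrophage gene Cd68 not called (-1.29, adjusted p = 0.052) and the leukocyte gene Ptprc near the bottom of the range at 5.53. Their part in the results below was not tested. Fewer cells of a type and less RNA per cell cannot be told apart in such bulk samples. A mean under 7 is called dim here, since the endothelial and muscle markers had group means between 5.06 and 7.14.

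Of the 32 measured focal adhesion genes 7 rose, 8 fell and 17 were not called. That is 46.9% called, where 13.6% of all genes tested were called, 6.49% higher and 7.15% lower. With the brightest probe set of each gene, the largest rise was that of the tensin Tns1 (5.71-fold, a difference of 2.51 ± 0.26, SE), a place it lost to Pdlim1 with the mean of all probe sets (1.53 against 1.77), and the largest fall that of the vinculin-binding adaptor Sorbs2 (10.7-fold, -3.42 ± 0.11). Pdlim1, Tln2, Fermt1, Palld, Fermt2 and Pdlim7 also rose, and Tns2, Sorbs3, Lmo7, Pdlim2, Lims1, Tns3 and Lasp1 also fell. A change of at least 2-fold was called in 7 members (5 higher and 2 lower), against 3.4% of all genes. The members' median difference was 0.14, beside 0.0097 over all genes, and their median size regardless of sign was 0.36, beside 0.10. In 27 of 32 members the TGFβ and untreated arrays did not overlap, against 52.6% of all genes. The shares of all genes include many dim ones: 9022 of 19938 were dim in both groups, against 3 of the 32 members. Without the dimmer 50% of the 19938 genes, 2454 of the remaining 50% were called, a larger share than 13.6%. Of the 27 members that remained 14 were called, so their share stood less far above that of all genes. Brightness was not matched in these comparisons.

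**Figure D1:**
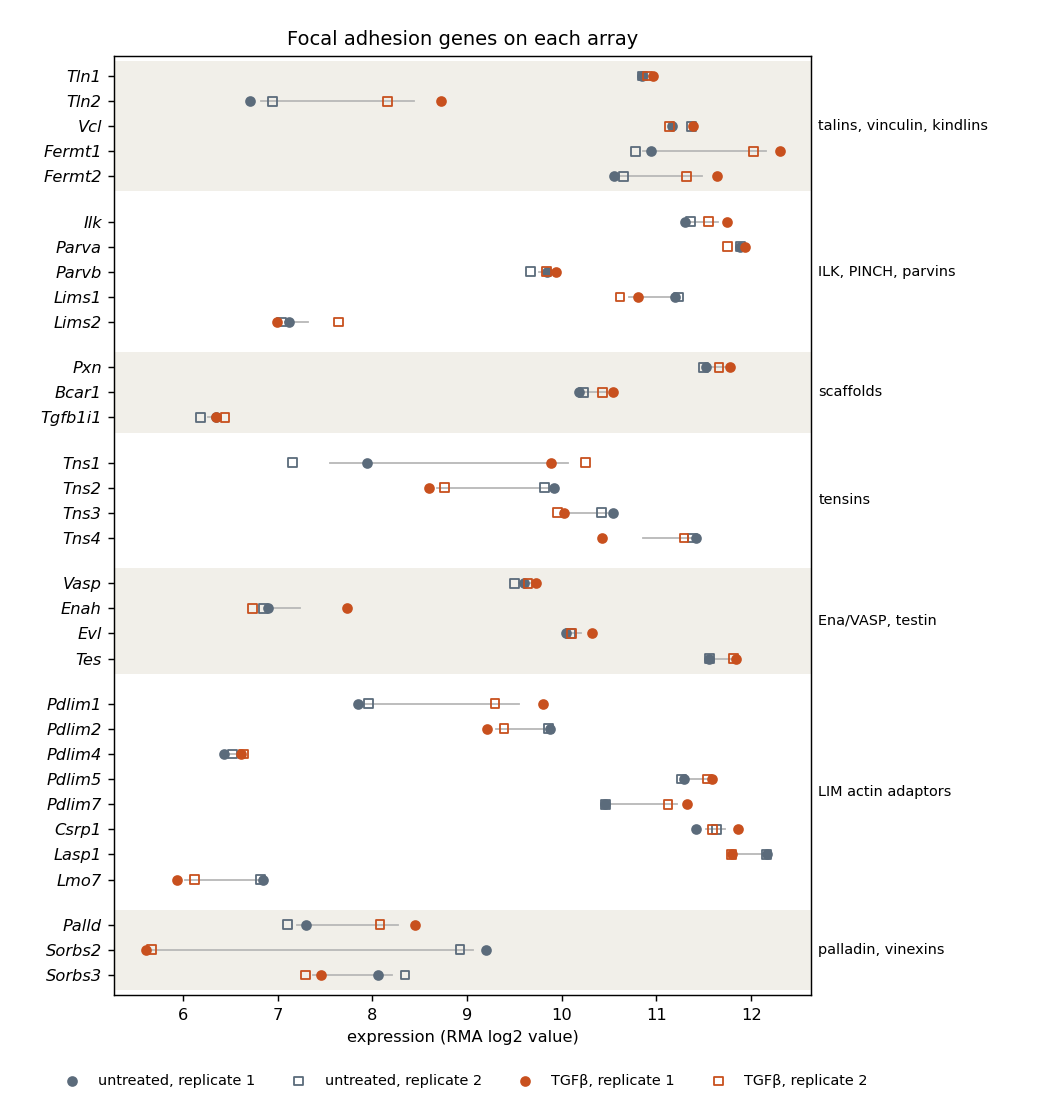
Each row is 1 focal adhesion gene, grouped by role, and each symbol the RMA log2 value on 1 array (grey untreated, orange TGFβ, circles replicate 1 and squares replicate 2), with a line joining the group means (n = 2). Sorbs2 falls from near 9 to 5.64 and Tns1 rises to 10.07, while Vcl, Parva and Csrp1 have overlapping groups.

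**Figure D2:**
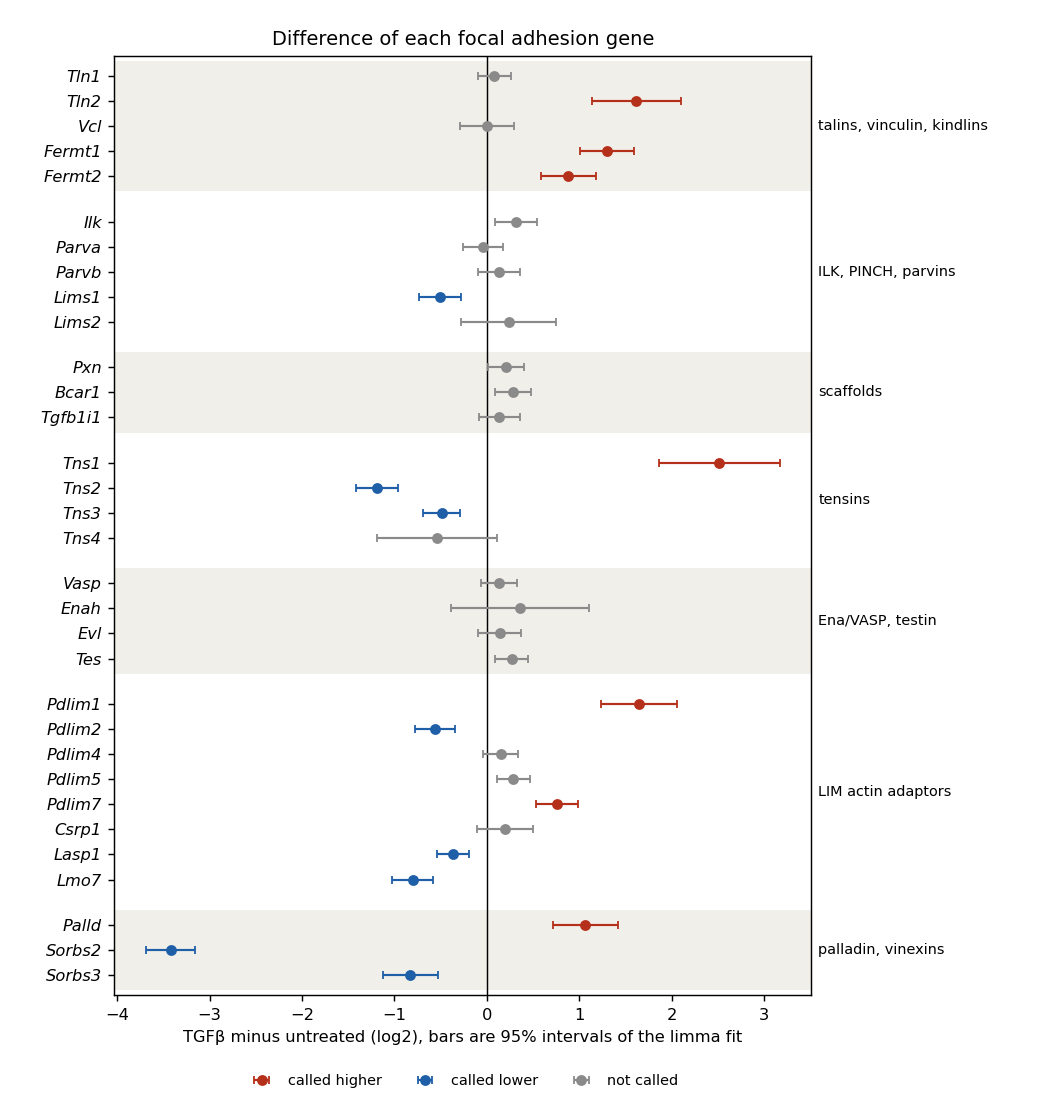
Each point is the difference TGFβ minus untreated (log2) of 1 gene and its bar the 95% interval of the limma fit, red for called higher, blue for called lower and grey for not called. Tensins and PDZ-LIM genes each hold called members on both sides of the 0 line, while Vcl lies on it.

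**Figure D3:**
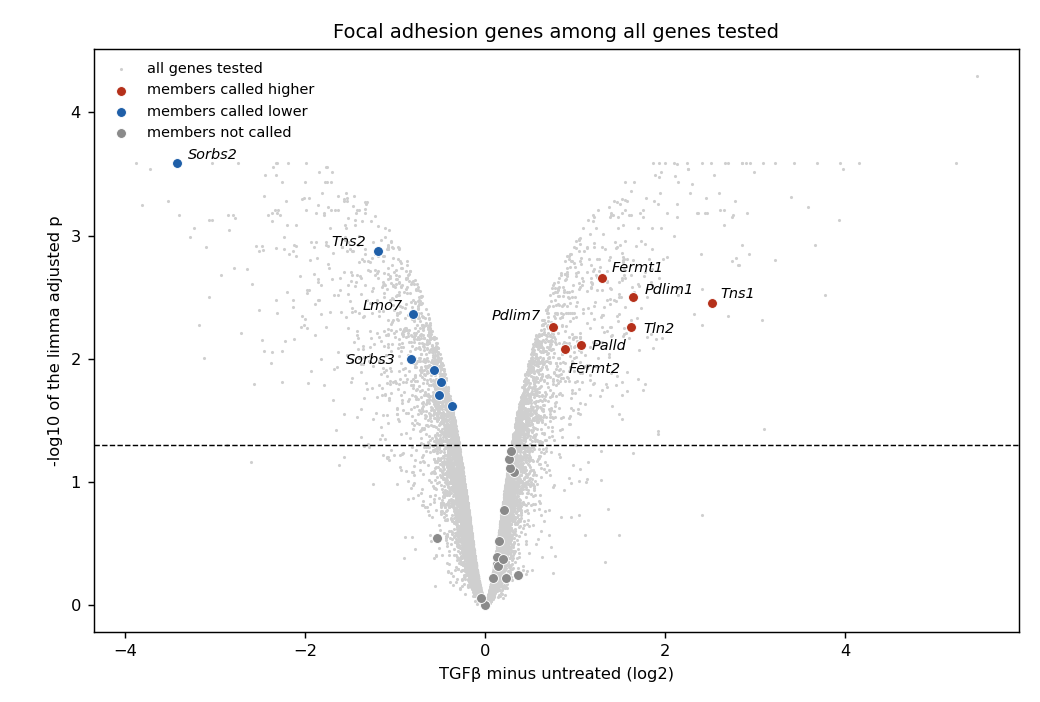
Each point is 1 gene, with the difference TGFβ minus untreated (log2) on the x axis and the -log10 of the limma adjusted p on the y axis; the dashed line is the 0.05 threshold. The 7 red and 8 blue members lie above it among all genes in light grey, with Sorbs2 at the far left of the members and Tns1 at the far right.

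The start regions of 6 members are shown because they stand for the behaviours seen: the kindlins Fermt1 and Fermt2 and the LIM gene Pdlim1, which rose, the tensins Tns1 and Tns2, which moved apart, and vinculin, Vcl, which was not called. Each run is the RefSeq window from 250 bases before to 50 bases after a transcription start (GRCm38.p6), 5′ to 3′ on the gene's strand. Capitals mark the letters of any of 5 motifs on either strand: GGAATG (bound by TEAD factors), CAGAC (Smads), TGANTCA (AP-1), CACCTG (an E-box bound by Zeb and Snail factors) and the CArG box of serum response factor. No 2 of these matches overlap in the runs shown.
Fermt1 (chr2:132945987-132946286, minus strand): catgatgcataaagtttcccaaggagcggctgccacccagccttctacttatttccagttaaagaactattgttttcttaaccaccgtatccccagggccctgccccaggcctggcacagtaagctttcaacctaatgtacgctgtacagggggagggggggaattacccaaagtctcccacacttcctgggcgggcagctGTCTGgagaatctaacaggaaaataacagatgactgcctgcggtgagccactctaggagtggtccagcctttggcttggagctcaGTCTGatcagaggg
Fermt2 (chr14:45530016-45530315, minus strand): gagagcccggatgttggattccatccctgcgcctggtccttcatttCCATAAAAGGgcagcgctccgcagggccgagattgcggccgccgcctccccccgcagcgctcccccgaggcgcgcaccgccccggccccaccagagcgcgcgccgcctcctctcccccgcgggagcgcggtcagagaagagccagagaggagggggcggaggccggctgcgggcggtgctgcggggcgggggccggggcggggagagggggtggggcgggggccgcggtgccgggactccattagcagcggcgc
Vcl (chr14:20929148-20929447, plus strand): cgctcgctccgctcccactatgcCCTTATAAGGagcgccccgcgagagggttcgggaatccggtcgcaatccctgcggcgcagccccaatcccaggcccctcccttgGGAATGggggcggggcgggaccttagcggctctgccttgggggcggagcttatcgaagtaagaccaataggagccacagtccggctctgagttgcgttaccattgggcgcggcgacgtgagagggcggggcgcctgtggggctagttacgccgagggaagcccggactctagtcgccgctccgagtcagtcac
Tns1 (chr1:74124499-74124798, minus strand): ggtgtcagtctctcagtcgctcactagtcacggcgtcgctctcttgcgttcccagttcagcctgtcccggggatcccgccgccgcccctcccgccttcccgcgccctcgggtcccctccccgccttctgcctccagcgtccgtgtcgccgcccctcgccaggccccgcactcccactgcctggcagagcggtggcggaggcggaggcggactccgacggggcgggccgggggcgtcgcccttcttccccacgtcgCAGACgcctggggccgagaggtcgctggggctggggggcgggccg
Tns2 (chr15:102102684-102102983, plus strand): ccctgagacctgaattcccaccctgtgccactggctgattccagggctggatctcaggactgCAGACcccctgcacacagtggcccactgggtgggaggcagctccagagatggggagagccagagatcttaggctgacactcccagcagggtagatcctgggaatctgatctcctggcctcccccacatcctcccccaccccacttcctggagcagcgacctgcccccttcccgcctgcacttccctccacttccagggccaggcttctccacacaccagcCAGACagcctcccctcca
Pdlim1 (chr19:40271567-40271866, minus strand): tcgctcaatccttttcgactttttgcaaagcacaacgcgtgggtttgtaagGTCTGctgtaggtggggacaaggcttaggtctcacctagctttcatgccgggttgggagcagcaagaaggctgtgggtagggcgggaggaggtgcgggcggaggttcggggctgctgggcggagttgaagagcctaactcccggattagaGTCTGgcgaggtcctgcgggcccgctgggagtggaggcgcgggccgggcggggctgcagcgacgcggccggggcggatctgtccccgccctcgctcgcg

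Fermt2 and Vcl each hold a CArG box, at positions -204 and -227 from the start, and Vcl also holds GGAATG at -143. The other 4 windows hold CAGAC or its reverse complement and no other of the motifs. The table has windows for 24 of the 32 measured members, 36 in all since some genes have several starts. CAGAC was found in 5 of 8 windows of the members that rose, 5 of 11 of those that fell and 7 of 17 of those not called. Of all 32851 windows 49.6% held it. GGAATG was found in 1 of 8 windows of members that rose (Palld), 0 of 11 of those that fell and 3 of 17 of those not called (Evl and Vcl), against 14.7% of all windows. The CArG box was found in 1 of 8, 0 of 11 and 1 of 17, against 1.63%. TGANTCA was found in 1 of 8 (Palld), 0 of 11 and 0 of 17, against 7.81%, and CACCTG in 0 of 8, 2 of 11 (Lims1 and Tns3) and 1 of 17 (Csrp1), against 20.2%. A match of letters is a description of the window and no evidence of binding.

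Talins and kindlins bind the integrin beta tail and switch the receptor on, and vinculin strengthens the link of talin to actin. Of these 5 genes 3 rose and 2 were not called. Tln2, the talin of muscle and brain that many other cells also express, read 6.71 and 6.94 untreated, and 8.73 and 8.16 after TGFβ. Both TGFβ arrays were far above both untreated arrays, a 3.06-fold rise (1.62 ± 0.19, SE, adjusted p = 0.0056), and the untreated level was dim, so background limits the fold. The broadly expressed Tln1 read 10.85 in both untreated arrays and 10.96 and 10.90 after TGFβ, a difference of 0.08 with a 95% interval of -0.10 to 0.26. That interval does not reach the interval of Tln2, 1.14 to 2.10.

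Fermt1, kindlin-1 of epithelia, whose loss causes the skin blistering of Kindler syndrome, read 10.94 and 10.78 untreated and 12.30 and 12.02 after TGFβ. It rose 2.47-fold (1.30 ± 0.12, adjusted p = 0.0022) with the groups well apart. The widely expressed kindlin-2, Fermt2, read 10.55 and 10.65 untreated and 11.64 and 11.32 after TGFβ. It rose 1.84-fold (0.88 ± 0.12, adjusted p = 0.0084). Vcl read 11.16 and 11.37 untreated and 11.39 and 11.14 after TGFβ, so its groups covered the same range. Its difference of 0.00062 had a 95% interval of -0.29 to 0.29.

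Integrin-linked kinase, a pseudokinase, forms a complex with a PINCH protein (Lims1 or Lims2) and a parvin, and this complex joins integrins to actin. Of the 5 genes 1 fell and 4 were not called. Lims1 (PINCH-1) read 11.20 and 11.24 untreated and 10.80 and 10.61 after TGFβ, a fall of 1.42-fold (-0.51 ± 0.09, adjusted p = 0.019). The Lims1 arrays did not overlap, but 5 alternatives ended the call. Leaving out untreated replicate 1 gave an adjusted p of 0.073 (-0.53), leaving out untreated replicate 2 one of 0.084 (-0.49) and leaving out TGFβ replicate 2 one of 0.053 (-0.41). Blocking on the replicate number gave 0.057, and testing every probe set 0.067.

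Its relative Lims2 (PINCH-2) read 7.12 and 7.04 untreated and 6.99 and 7.64 after TGFβ, so that 1 TGFβ array lay below both untreated arrays and the other above (0.24, 95% interval -0.28 to 0.75). Without TGFβ replicate 1 the difference was 0.56 (adjusted p = 0.029). Ilk itself read 11.30 and 11.36 untreated and 11.74 and 11.55 after TGFβ, a difference of 0.32 that was not called (adjusted p = 0.083). Ilk passed in a fit with an intensity-dependent, robust variance prior (adjusted p = 0.049). It also passed with a block that crossed the replicate numbers between the groups (limma adjusted p = 0.046), a setting added after seeing the data. The parvins Parva and Parvb, which bind actin, differed by -0.04 (95% interval -0.26 to 0.18) and 0.13 (95% interval -0.09 to 0.36).

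Of the signalling scaffolds that gather kinases at the plaque, 3 were measured and none of these 3 was called. Paxillin, Pxn, a docking protein for kinases and exchange factors, read 11.53 and 11.50 untreated and 11.78 and 11.66 after TGFβ (0.21, adjusted p = 0.17). Bcar1, which encodes the stretch-sensitive adaptor p130Cas, read 10.18 and 10.23 untreated and 10.54 and 10.43 after TGFβ (0.28, adjusted p = 0.077). In both genes the TGFβ arrays lay above the untreated ones, by a small step. Tgfb1i1, or Hic-5, a paxillin relative named for its induction by TGFβ, read 6.34 and 6.18 untreated and 6.35 and 6.44 after TGFβ (0.13, 95% interval -0.09 to 0.35). It was dim in every array, within the range of the endothelial and muscle markers, where a change would be hard to see.

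Tensins bind integrin tails through a phosphotyrosine-binding domain, and the longer ones also bind actin. The 4 tensins moved apart: 1 rose, 2 fell and 1 was not called. Tns1, found in fibroblast adhesions, read 7.94 and 7.16 untreated and 9.88 and 10.25 after TGFβ. Its rise of 5.71-fold (adjusted p = 0.0035) held rank 41 among the 1294 genes that rose. Both the size and the rank depend on the choice of probe set, described below. The untreated arrays varied most (SD 0.55, n = 2), and a gap of 1.94 separated the groups. Tns2 read 9.92 and 9.82 untreated and 8.59 and 8.76 after TGFβ, a fall of 2.28-fold (-1.19 ± 0.09, adjusted p = 0.0013).

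Tns3 read 10.54 and 10.42 untreated and 10.02 and 9.96 after TGFβ, a fall of 1.40-fold (-0.49 ± 0.08, adjusted p = 0.015). Tns3 missed the threshold on leaving out untreated replicate 1 (-0.43, adjusted p = 0.085), on leaving out TGFβ replicate 2 (-0.46, adjusted p = 0.0535) and on testing every probe set (adjusted p = 0.0547). Tns4, or Cten, a short tensin of epithelia without the actin-binding part, read 11.42 and 11.38 untreated and 10.43 and 11.29 after TGFβ. The TGFβ arrays disagreed on its size, and the difference of -0.54 was not called (adjusted p = 0.28). Without TGFβ replicate 2 it was -0.97 (adjusted p = 0.0042), and without TGFβ replicate 1 it was -0.11.

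The array reads Tns1 with 6 probe sets, and the choice among them bears on the size of its change. Adjusted over all 35556 probe sets, 5 of the 6 were called higher, with differences of 2.51, 2.19, 2.13, 1.33 and 0.85. The remaining one, second in brightness, read 8.34 and 8.81 untreated and 8.64 and 8.83 after TGFβ, with overlapping groups and a difference of 0.16 (95% interval -0.32 to 0.63). In the untreated group its mean was above that of the probe set that stands for Tns1 (8.58 against 7.55). After TGFβ it was below (8.73 against 10.07). The choice of the brightest over all arrays therefore rested on the group in which Tns1 was high, which favours a large rise. For this probe set the gene table lists 1 of the 2 curated RefSeq transcripts of Tns1, and for each of the other 5 it lists both. The mean of the 6 gave a difference of 1.53 for Tns1 in place of 2.51, still called but below Pdlim1 (1.77) and Tln2 (1.62). Pdlim1 has 2 probe sets, which gave 1.65 and 1.90, both called (adjusted p = 0.025 and 0.016 over all probe sets).

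**Figure D4:**
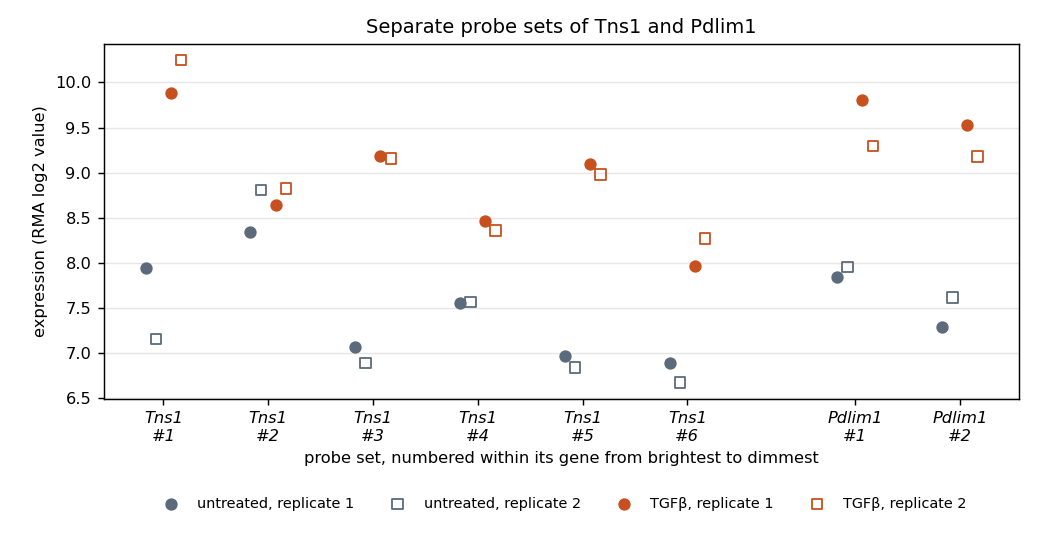
Each column is 1 probe set of Tns1 (6) or Pdlim1 (2), numbered from the brightest, and each symbol the RMA log2 value on 1 array. The second Tns1 probe set has overlapping groups (8.34 to 8.83), whereas in the other 5 and in both Pdlim1 probe sets the TGFβ arrays lie above the untreated ones.

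Ena/VASP proteins speed the growth of actin filaments at adhesions, and testin, Tes, is a LIM protein that binds zyxin and the Ena/VASP protein Mena. None of these 4 genes was called. Vasp read 9.60 and 9.50 untreated and 9.72 and 9.64 after TGFβ (0.13, 95% interval -0.07 to 0.33), and Evl differed by 0.14 (95% interval -0.10 to 0.37). Tes read 11.56 in both untreated arrays and 11.84 and 11.81 after TGFβ, a tight difference of 0.27 that just missed the threshold (adjusted p = 0.066). With the robust variance prior Tes passed (adjusted p = 0.039). Enah, which encodes Mena, was dim untreated, at 6.89 and 6.85, and read 7.73 and 6.73 after TGFβ. Its TGFβ arrays lay on either side of the untreated ones, and the difference was 0.36 (95% interval -0.38 to 1.10), or 0.86 (adjusted p = 0.0062) without TGFβ replicate 2 and -0.14 without TGFβ replicate 1.

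The LIM-domain adaptors sit along actin filaments and stress fibres. Of these 8 genes 2 rose, 3 fell and 3 were not called, and the PDZ-LIM genes were found in each of these classes. Pdlim1 (CLP36), which binds alpha-actinin, read 7.85 and 7.95 untreated and 9.80 and 9.29 after TGFβ, a rise of 3.13-fold (1.65 ± 0.17, adjusted p = 0.0032). Pdlim7 (Enigma), which binds tropomyosin and protein kinases, read 10.46 and 10.47 untreated and 11.32 and 11.12 after TGFβ, a rise of 1.69-fold (0.76 ± 0.09, adjusted p = 0.0056). Pdlim5 (Enigma homologue) read 11.29 and 11.27 untreated and 11.59 and 11.54 after TGFβ (0.29, adjusted p = 0.056). Pdlim5 passed after cyclic loess (adjusted p = 0.045) and under the robust variance prior (adjusted p = 0.038).

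Pdlim2 (Mystique), which also acts in the nucleus as a ubiquitin ligase for NF-kappaB and Stat factors, read 9.87 and 9.86 untreated and 9.21 and 9.39 after TGFβ. It fell 1.48-fold (-0.56 ± 0.09, adjusted p = 0.012), and missed the threshold on leaving out untreated replicate 1 (-0.56, adjusted p = 0.059). Pdlim4 (RIL) was dim in both groups, at 6.47 ± 0.06 and 6.63 ± 0.02 (SD, n = 2), and differed by 0.15. Csrp1, a LIM protein that binds zyxin and alpha-actinin, had overlapping arrays, at 11.42 and 11.64 untreated and 11.86 and 11.59 after TGFβ (0.20, 95% interval -0.11 to 0.50).

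Lasp1, an actin-binding LIM and SH3 protein, read 12.16 and 12.17 untreated and 11.80 and 11.79 after TGFβ. This fall of 1.29-fold (-0.37 ± 0.07, adjusted p = 0.024) was the smallest of the 15 called, and its size lay between -0.38 and -0.36 in each of the 14 alternatives. The call ended on leaving out any 1 of the 4 arrays, at adjusted p of 0.119 (untreated replicate 1), 0.112 (untreated replicate 2), 0.076 (TGFβ replicate 1) and 0.072 (TGFβ replicate 2). Blocking on the replicate number gave 0.072, and testing every probe set 0.066. Lmo7, which links junctions of epithelial cells to actin and also occurs in focal adhesions, read 6.84 and 6.82 untreated and 5.93 and 6.12 after TGFβ. It fell 1.75-fold (-0.80 ± 0.09, adjusted p = 0.0043) although dim in both groups, so its fold is limited by background.

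Palladin bundles actin in stress fibres, and the vinexin family binds vinculin and carries SH3 domains. All 3 measured genes of this group were called. Palld read 7.30 and 7.10 untreated and 8.45 and 8.08 after TGFβ, a rise of 2.09-fold (1.07 ± 0.14, adjusted p = 0.0077). Sorbs2 (ArgBP2), an adaptor of stress fibres and of the Abl and Pyk2 kinases, read 9.19 and 8.92 untreated and 5.61 and 5.66 after TGFβ. Its fall (adjusted p = 2.6e-04) held rank 5 among the 1426 genes that fell, with a gap of 3.26 between the groups. It ended dim, within the range of the endothelial markers, so background limits the fold. Vinexin itself, Sorbs3, read 8.06 and 8.34 untreated and 7.46 and 7.29 after TGFβ, a fall of 1.78-fold (-0.83 ± 0.12, adjusted p = 0.010).

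Of the 17 members not called, 14 had a 95% interval inside a 1.5-fold change in either direction. Among these 14, Tgfb1i1 and Pdlim4 were dim in both groups, where a change would be hard to see. The others were Lims2, Tns4 and Enah, whose TGFβ arrays lay apart. The TGFβ arrays were not equally far from the untreated ones. Replicate 1 lay farther from the untreated mean than replicate 2 in 23 of the 32 members, against 53.7% of all genes tested. It did so in 6 of the 7 members that rose and 4 of the 8 that fell, where over all genes it did so in 901 of the 1294 that rose and 823 of the 1426 that fell. Tns1 was the rising member with the larger distance in replicate 2 (2.33 and 2.70). Without TGFβ replicate 1 the members' median was 0.087, and 0.18 without TGFβ replicate 2. The same 7 members were called higher in all 14 alternatives, and Tns2, Sorbs2 and Sorbs3 were called lower in all 14. Lmo7 was called lower in the 13 that kept it among the genes tested. Without untreated replicate 1, 4 members were called lower in place of 8.

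**Figure D5:**
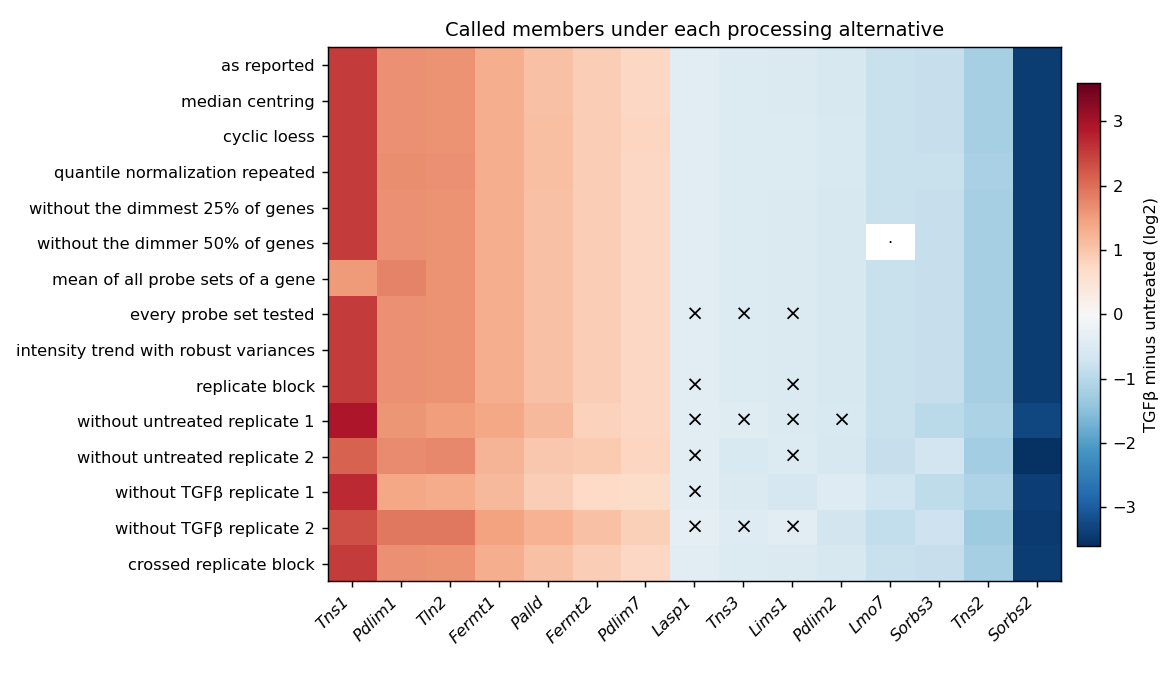
Rows are the reported setting and the 14 alternatives, columns the 15 called members, and colour the difference TGFβ minus untreated (log2). A cross marks an adjusted p of 0.05 or more and a dot a gene left out by the filter: crosses fall on Lasp1, Tns3, Lims1 and Pdlim2 alone, while the 7 rising members carry none.

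Around these members, 5 further lists of the adhesion machinery held 93 genes, of which 87 were measured. Of these 14 rose, 8 fell and 65 were not called (25.3% called, against 13.6% of all genes tested). Of 7 zyxin family genes 2 rose, Wtip (0.77) and Zyx (0.76), and 1 fell, Ajuba (-0.41). For Zyx, leaving out untreated replicate 1 gave 0.64 (adjusted p = 0.12) and leaving out TGFβ replicate 1 gave 0.55 (adjusted p = 0.063), while the block gave an adjusted p of 0.087 and testing every probe set 0.099. For Ajuba, leaving out untreated replicate 1 gave -0.45 (adjusted p = 0.12), leaving out untreated replicate 2 gave -0.37 (adjusted p = 0.17) and leaving out TGFβ replicate 2 gave -0.31 (adjusted p = 0.12), while the block gave an adjusted p of 0.102 and testing every probe set 0.11.

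Of 18 integrin subunits, the receptors that talin and kindlin bind, 4 rose and 5 fell. The beta subunit Itgb3 rose 10.6-fold (3.40 ± 0.17), from 6.88 and 7.14 to 10.64 and 10.18. The fibronectin receptor subunit Itga5 (2.13 ± 0.08) and the common partner Itgb1 (0.81 ± 0.08) rose too. Itga8 (-3.23 ± 0.21), Itgb6 (-2.64 ± 0.23) and the hemidesmosome subunit Itgb4 (-1.41 ± 0.08) fell. Itga8 (5.93) and Itgb6 (6.70) ended dim after TGFβ, so background limits their sizes. The untreated mean of Itgb3 (7.01) lay within the range of the endothelial and muscle markers, so background may limit its fold too. Both directions were therefore present among receptors as among the members.

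Of 19 measured actin filament genes 4 rose, 1 fell and 14 were not called. The filamin Flnc (1.68 ± 0.19), the myosin light chain Myl9 (0.93 ± 0.15) and the tropomyosin Tpm1 (0.91 ± 0.08) had the largest rises, and the tropomyosin Tpm2 fell by 0.95. Myl9 was dim untreated (6.25) and Tpm2 dim after TGFβ (6.75), which limits both sizes. Myl9 missed the threshold on leaving out untreated replicate 2 (0.87, adjusted p = 0.054) and on testing every probe set (adjusted p = 0.065). Of 25 measured adhesion signalling genes 3 rose, the Src family kinase Fyn (1.57 ± 0.08), the Rac exchange factor Dock1 (1.00 ± 0.10) and the focal adhesion kinase relative Ptk2b, or Pyk2 (0.85 ± 0.15), and 0 fell. Ptk2b missed the threshold on leaving out untreated replicate 2 (0.79) and on testing every probe set (limma adjusted p = 0.076). Their share called, 12%, was near that of all genes.

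Of 18 measured relatives of the members, 1 rose and 1 fell (11.1% called, below the 13.6% of all genes). Csrp2, the sister of the uncalled Csrp1, read 9.08 and 9.09 untreated and 10.62 and 10.06 after TGFβ, a rise of 2.39-fold (1.26 ± 0.18, adjusted p = 0.0098). Fhl1, a protein made of LIM domains, read 9.01 and 8.93 untreated and 7.66 and 7.62 after TGFβ, a fall of 2.51-fold (-1.33 ± 0.08, adjusted p = 6.1e-04). The intervals of Csrp2 and Csrp1 did not meet, at 0.81 to 1.70 and -0.11 to 0.50. Dim in both groups were 10 of the 18 relatives, among them the blood cell kindlin Fermt3, at group means of 6.58 and 6.63.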

How the data were processed

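Total RNA was labelled with an Affymetrix kit and measured on 4 arrays, whose number limits precision. The authors deposited 1 log2 value per probe set and array, and the submitters' processing notes name RMA and the R package oligo. RMA subtracts background and quantile-normalizes the arrays, which can compress differences at both ends of the range. Software version, probe-set annotation and genome build were not given in the sources used here. Of 35556 probe sets 21789 carry 1 symbol in the array's gene table, 1621 several and 12146 none. The brightest single-symbol probe set stood for each of 19938 genes.

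The groups were compared by limma 3.58.1 under R 4.3.3 (two-sided, 2 residual and 3.77 prior degrees of freedom), with Benjamini-Hochberg adjustment over all genes tested and no filter. With 2 arrays a group, the smallest exact two-sided permutation p is 0.333, so none was run. The procedure was run on data simulated from limma's own fitted variances with normal errors. That cannot show how it performs where real arrays depart from this model. Promoter windows came from RefSeq's table for GRCm38.p6. The members and gene lists were chosen with earlier results of these data known. All members are named, along with Zyx and, of each further list, the called genes that changed most (at most 3 in each direction), and the marker genes the text turns on. Gene neighbours were looked at after the values were seen.

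The alternatives changed the scaling (centring on medians, cyclic loess, a second quantile normalization), the genes (without the dimmest 25%, without the dimmer 50%), the probe sets (their mean per gene, or all tested singly), the variance prior (trended on intensity and robust) or the arrays (each left out in turn), or added a replicate block. A crossed pairing of the replicate numbers was added after seeing the data.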

Additional observations from a re-analysis of the deposited data

How the results depend on the processing

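None of the 15 called members changed sign under the 14 alternatives. Of 443 member values under them, 420 kept their side of the threshold, 15 lost the call and 8 gained it. Sign changed in 6 values of 4 uncalled members (Vcl, Parva, Lims2 and Enah), each of them uncalled. Between 4 and 7 members were called lower when an array was left out, against 8 with all arrays, and 7 to 8 higher. With every probe set tested 5 members were called lower. In that setting 1536 of the 35556 probe sets were called, a count of probe sets and not of genes. All genes called numbered 1535 to 2260 with an array left out, where a lone array is assumed to vary like the other group. With the replicate number as a block 1624 genes were called, 7 members higher and 6 lower (without Lims1 and Lasp1). The deviations of replicate 1 in the 2 groups had a correlation of -0.213 over genes and -0.0435 over all probe sets, so the shared numbers were not taken as pairs. Crossed, the block gave 3640 calls, 8 members higher and 8 lower. Of the further adhesion genes 16 to 24 were called, against 22. No scaling moved the median of all genes by more than 0.1. Signal limits Tgfb1i1, Pdlim4 and Lmo7, dim in both groups, and the folds of Tln2, Sorbs2 and the uncalled Enah, dim in one.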

Other observations

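The genes next to the called members were looked at after the values had been seen, by order along the chromosome in the RefSeq table and protein-coding genes alone. Of 29 measured next genes of called members 8 were called (27.6%), 7 of them in the direction of the member. Over all measured members 17 of 62 next genes were called (27.4%), so the share beside called members was close to this. Of all genes 13.6% were called, but 9022 of the 19938 were dim in both groups, and the next genes were not matched for brightness. Pdlim2 (-0.56) and Sorbs3 (-0.83), both members that fell, are themselves next to each other and make up 2 of the 8. On the far side of Pdlim2 the uncharacterised 9930012K11Rik fell by 0.31 (adjusted p = 0.043), and on the far side of Sorbs3 the calcineurin subunit Ppp3cc was not called (-0.13). Sorbs2 (-3.42) lies next to Tlr3, the receptor for double-stranded RNA, which fell by 2.32 (adjusted p = 2.6e-04). Tln2 (1.62) lies next to the tropomyosin Tpm1 (0.91), Pdlim7 (0.76) next to the actin-binding drebrin gene Dbn1 (1.89, adjusted p = 3.2e-04), and Fermt2 (0.88) next to Gnpnat1, an enzyme of amino sugar synthesis (0.56). Tns3, which fell, lies next to Igfbp3, a binding protein of insulin-like growth factors that rose (0.72). Whether next genes share a call more often than others was not tested.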
